A study of Mus musculus with 4 samples.

Results

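Thick limb spots are the places on a kidney section where transcripts of the thick ascending limb of the loop of Henle were most concentrated, a segment that is densest in the inner stripe of the outer medulla. For each Visium section, counts were pooled over each tissue spot and its up to 6 neighbours on the array, and the 10% of spots with the highest share of Slc12a1, Umod and Ptger3 in their total UMIs (unique transcript counts) were taken. Members were thus chosen by measured marker levels. There were 262 in normal section 1, 268 in normal section 2, 240 in ischemic section 1 and 261 in ischemic section 2, or 1031 of 10312 tissue spots, and the remaining 9281 are called other spots. The question addressed was how gene expression of this region differed between normal kidneys and kidneys injured by ischemia.

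All 4 sections came from left kidneys of wild-type C57BL/6J male mice aged 7 to 8 weeks, snap-frozen in OCT and cut at 10 µm onto the capture areas of 1 slide. The ischemic kidneys had been deprived of blood flow for 30 min by clamping both renal pedicles and were taken 24 h later, and the normal kidneys served as controls. The methods describe 2 mice per condition with technical replicates of each. Which mouse gave which section is not stated, so the p-values measure the spread between sections, which may be technical. A Visium spot covers several cells of different types. Fewer cells of a type and less RNA per cell cannot be told apart in these sums.

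The thick ascending limb takes up sodium, potassium and chloride through the cotransporter NKCC2, encoded by Slc12a1, without letting water follow, and so builds the medullary gradient that concentrates the urine. Potassium returns to the lumen through ROMK (Kcnj1), chloride leaves on the blood side through channels that need the subunit barttin (Bsnd), and the sodium pump drives the whole process. The resulting lumen-positive voltage moves calcium and magnesium between the cells through claudins. The cells are packed with mitochondria, work at low oxygen tension, and secrete uromodulin (Umod), the most abundant protein of normal urine.

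Members lay in patches rather than as scattered spots. Patches of at least 10 members held 87.8% and 99.3% of the normal members and 90.4% and 80.1% of the ischemic members. Core members, whose neighbours were all members, numbered 110, 139, 60 and 93 in normal 1, normal 2, ischemic 1 and ischemic 2. In the same order, spots at the tissue edge made up 2.29%, 10.1%, 5.83% and 7.66% of members, against 11.5% to 14.3% of other spots. The map shows these bands section by section.

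**Figure D1:**
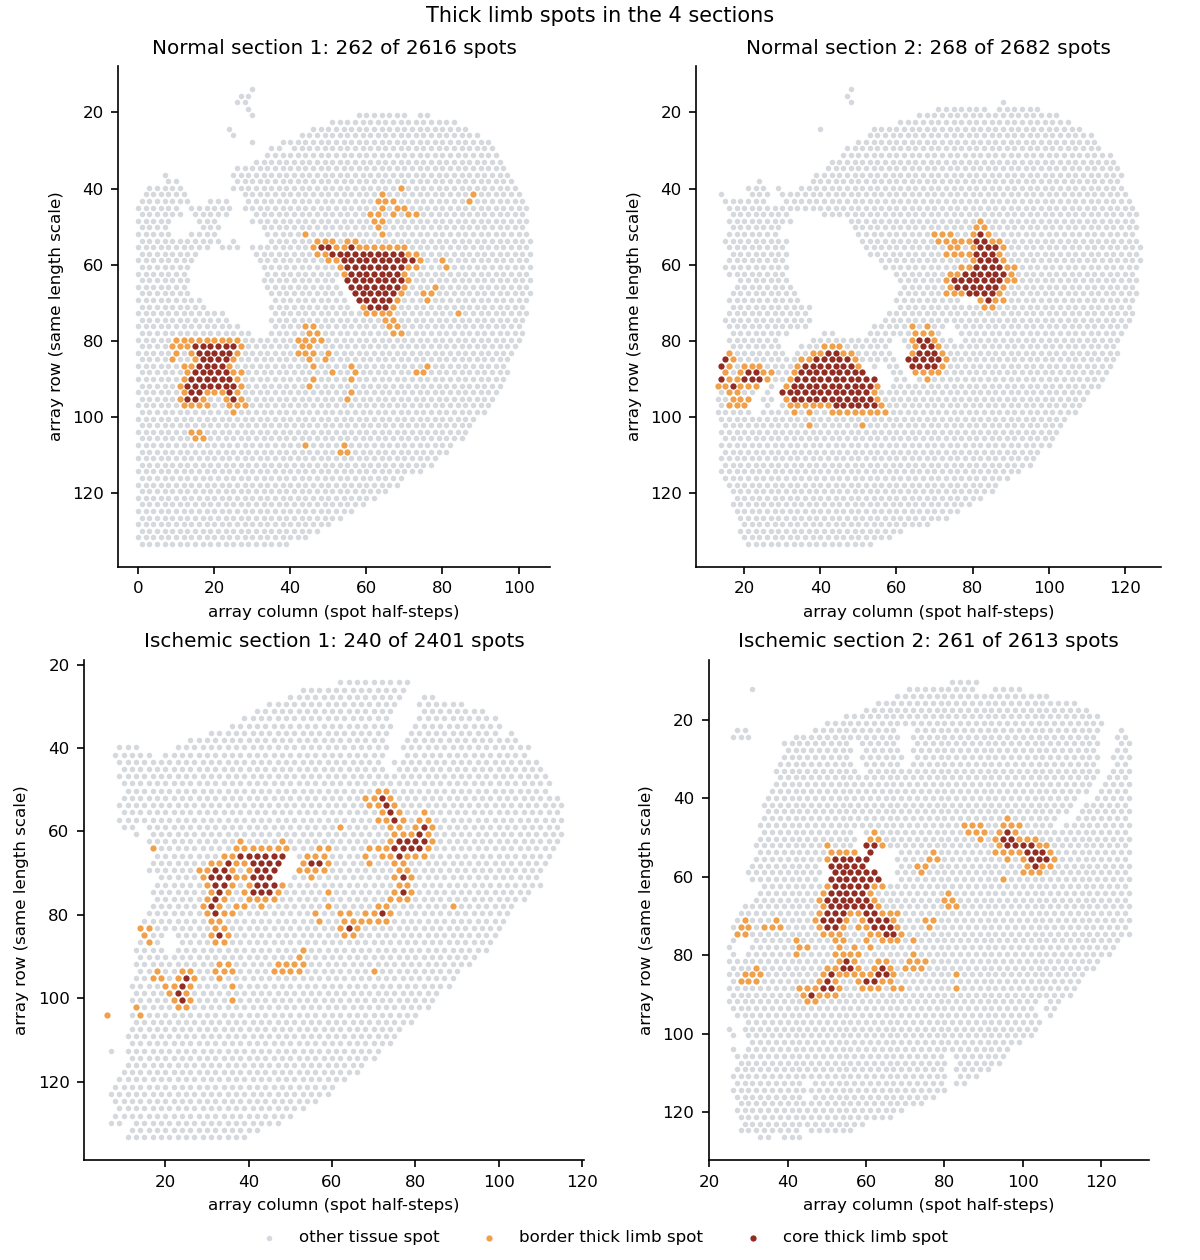
Maps of the 4 sections by array column and row, with other tissue spots in grey, border members in orange and core members (all neighbours also members) in dark red. Members form bands and patches in each section, with 60 to 139 core members per section.

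The rule's own values gave the following cut, as a description. The lowest pooled marker share of a member was 0.702%, 1.14%, 0.678% and 0.710% in normal 1, normal 2, ischemic 1 and ischemic 2. Just outside the cut the highest share of another spot was 0.698%, 1.13%, 0.678% and 0.710%. Member medians were 0.982%, 1.65%, 0.783% and 0.834%, against 0.175% to 0.243% in other spots, so normal section 2 stood above the other sections. Above a single cut of 0.7018% for all sections there were 262, 532, 202 and 272 spots.

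Member sums held 3779694 (normal 1), 1822411 (normal 2), 2521446 (ischemic 1) and 2120409 (ischemic 2) UMIs, and median UMIs per member ranged from 6672 in normal 2 to 13238.5 in normal 1. Levels below are scaled CPM, UMI counts set relative to each sum's total after trimmed-mean (TMM) scaling over the member and other-spot sums of all sections. Levels of different genes are not compared with each other. In the sections 1490 array positions were tissue spots in common, since the array layout is the same on each capture area.

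The label was checked against 7 thick limb genes that the rule did not use. Of these, 6 (Kcnj1, Cldn10, Egf, Bsnd, Tmem207 and Ppp1r1a) were higher in members than in other spots of every section, and 1, whose values are not reported here, was lower in members of every section. Kcnj1, for example, was at 281, 371, 126.9 and 137 scaled CPM in members of normal 1, normal 2, ischemic 1 and ischemic 2, against 134, 126, 49.98 and 47.8 in other spots.

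The normal sections were not alike in what else their members held. The 5 marker genes of the proximal straight tubule, which lies next to the inner stripe, summed to 2882 scaled CPM in members of normal 1 and 540.5 in normal 2, against 24.5 and 19.9 in the ischemic sections. In other spots the same sum was 2271, 1697, 144 and 149.7. Serpina1f, one of these markers, was at 531 unscaled CPM in core and 1141 in border members of normal 1, and at 119 and 400 in normal 2. Values without normal section 1 are therefore given for some of the falls, mainly those of proximal genes, and not for every fall in which it stood highest.

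The comparison of the ischemic with the normal member sums tested 11422 genes with edgeR's quasi-likelihood test and Benjamini-Hochberg adjustment, and 2586 (22.6%) passed an adjusted p of 0.05. Of all genes tested, 9.36% (1069 genes) were higher and 13.3% (1517 genes) were lower in the ischemic sections, with a median log2 difference of 0.02 over all genes. The 2 sections of one condition did not overlap the 2 of the other for 7675 genes (67.2%), so that a lack of overlap is common among all genes. Over 6680 genes at 20 CPM or more, the SD of the log2 difference between the normal sections was 0.634, and between the ischemic sections 0.24. The number of calls was 4236 without normal section 1, 5859 without normal section 2, 1087 without ischemic section 1 and 1210 without ischemic section 2. With members ranked instead by 5 other thick limb genes, among them Kcnj1, Cldn10, Bsnd and Tmem207, which kept 64.9%, 81.7%, 40.0% and 49.0% of the members, 583 genes passed, and 2500 of 2520 calls that could be compared kept their direction.

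Among the genes that chose the members, Slc12a1 stood at 1657 and 2471 scaled CPM in the normal members and at 215 and 206 in the ischemic members. Other spots had 343 and 388 in normal against 37.7 and 40.0 in ischemic sections. Umod was at 11123 and 11176 in normal against 6941 and 7322 in ischemic members. Ptger3, the EP3 prostaglandin receptor, was at 109.7 and 149 against 57.0 and 52.4. In members of both ischemic sections all 3 genes were lower than in those of both normal sections, which is given as values only because the rule used them.

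Among genes of salt transport, 7 of 14 fell in the ischemic members, against 13.3% of all genes tested. The other 7 did not pass, and the median log2 difference was -0.97. Bsnd, the barttin subunit of the chloride channels, was at 36.4 and 41.2 scaled CPM in normal against 8.28 and 12.3 in ischemic members, a log2 change of -1.97 ± 0.26 (SE) with an adjusted p of 0.00789. Kcnj1, the apical potassium channel, fell by 1.36 ± 0.24 on the log2 scale (adjusted p = 0.0136).

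Fxyd2, the gamma subunit that tunes the sodium pump, went from 11371 and 12269 to 5178 and 5445 scaled CPM, and the change of -1.21 ± 0.29 passed (adjusted p = 0.0313). Atp1b1, the beta subunit of the pump, did not pass, at 2066 and 2338 in normal against 1360.2 and 1375 in ischemic members (adjusted p = 0.0741). The kinase Wnk4, which regulates chloride transport, fell by 1.31 ± 0.31 (adjusted p = 0.0277), and the basolateral potassium channel Kcnj10 by 1.32 ± 0.29 (adjusted p = 0.0246). Stk39, the kinase SPAK that phosphorylates NKCC2, was at 30.7 and 40.3 in normal against 61.6 and 50.9 in ischemic members, a difference that did not pass (adjusted p = 0.103). Of the 7 falls, 1 passed without ischemic section 1 and 2 passed without ischemic section 2 (4 and 5 at an unadjusted p of 0.05). With members ranked by the 5 other thick limb genes, some of which are on this list, edgeR called 0 of the 7 (4 at an unadjusted p of 0.05), and DESeq2 with the members as chosen called 6, all but Kcnj10.

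The claudins of the cation pathway fell, whereas a claudin of tight epithelia rose. Of 11 tight junction genes tested, 2 rose and 3 fell, with a median log2 difference of -0.12. Among all genes tested 9.36% rose and 13.3% fell. Cldn10, the sodium-selective claudin of the inner stripe limb, was at 919 and 1226 scaled CPM in normal against 239.9 and 266 in ischemic members (log2 -2.14 ± 0.26, adjusted p = 0.00595). Cldn16 and Cldn19 form the calcium and magnesium pathway. Cldn16 was at 40.6 and 27.2 in normal against 11.3 and 10.7 in ischemic members and fell by 1.69 ± 0.29 (adjusted p = 0.0121), and Cldn19 by 0.84 ± 0.23 (adjusted p = 0.0442). The call of Cldn19 was lost with DESeq2, with the top 20% of spots and with the ranking by 5 other thick limb genes. Over the alternatives the log2 change of Cldn19 lay between -1.18 and -0.45. Cldn4 was at 17.1 and 34.6 in the normal and 164 and 164 in the ischemic members, a rise of 2.63 ± 0.35 on the log2 scale (adjusted p = 0.00731). With the members ranked by the 5 other thick limb genes its difference was 1.28 (adjusted p = 0.15). Leaving out ischemic section 1 or ischemic section 2 kept 1 of the 2 rises and 1 of the 3 falls in each case. Cldn14, which blocks the calcium pathway, was too low to be tested, with 1 UMI in the normal and 20 in the ischemic member sums, a ratio of 20.3 with a 95% counting interval of 3.24 to 840.0.

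Identity genes included the largest falls of the thick limb lists. Of 16 identity genes 9 fell and 7 did not pass, with a median log2 difference of -1.04, against 13.3% of all genes tested that fell. Egf, the growth factor precursor made in the thick limb and distal tubule, was at 1303 and 1564 scaled CPM in normal against 14.9 and 17.1 in ischemic members. The log2 change of -6.54 ± 0.31 had an adjusted p of 0.00149 and lay between -6.88 and -6.23 over 17 alternatives, all of which kept the call. Thinned to 2000 UMIs per spot, 80.5% and 93.8% of normal members and 2.95% and 2.69% of ischemic members held an Egf UMI (98.1%, 97.0%, 15.8% and 14.2% of spots without thinning). Wfdc15b was at 3692 and 4800 against 243 and 251 (log2 -4.16 ± 0.30, adjusted p = 0.00196). Tmem207, a membrane protein of the segment, was at 40.6 and 47.8 against 5.63 and 5.56 (log2 -3.02 ± 0.24, adjusted p = 0.00238).

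Ppp1r1a, an inhibitor of protein phosphatase 1, fell from 1809 and 2368 to 492 and 534 scaled CPM (log2 -2.08 ± 0.27, adjusted p = 0.00688). Among regulators of mitochondrial genes, the coactivator Ppargc1a fell from 54.4 and 85.5 to 21.2 and 14.7, Esrrb from 51.7 and 73.6 to 16.2 and 18.7, and Esrrg from 12.0 and 14.5 to 5.63 and 5.96. Their log2 changes were -1.997 ± 0.31, -1.89 ± 0.25 and -1.23 ± 0.30. Among transcription factors of segment patterning, Irx1 fell from 87.8 and 70.1 to 37.4 and 50.5 (log2 -0.91 ± 0.25, adjusted p = 0.0449), a call lost in 7 of 17 alternatives, DESeq2 and core members only among them. Pou3f3 was at 88.7 and 93.8 in normal against 64.9 and 63.2 in ischemic members and did not pass (adjusted p = 0.0889). Pax8, which the nephron keeps from development onward, was at 57.1 and 50.8 against 86.1 and 79.5 and did not pass (log2 0.56 ± 0.21, adjusted p = 0.101). Of the 9 falls, 5 passed without ischemic section 1 and 5 without ischemic section 2.

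Several receptors that set transport in this segment fell. Of 9 signalling genes tested, 4 fell and 1 rose, with a median log2 difference of -0.29. Among all genes tested 13.3% fell and 9.36% rose. Gcgr, the glucagon receptor, was at 133 and 171 scaled CPM in normal against 35.1 and 38.9 in ischemic members (log2 -2.09 ± 0.24, adjusted p = 0.00463), and passed in 17 of 17 alternatives. Casr, the calcium-sensing receptor, fell by 1.61 ± 0.33 from 14.1 and 12.3 to 4.97 and 3.97. Avpr2, the vasopressin V2 receptor, fell by 1.42 ± 0.22 from 62.2 and 78.9 to 25.5 and 29.0. Pth1r was at 326 and 89.0 in the normal members, which differed widely, and at 52.0 and 50.5 in the ischemic members. Its log2 change was -2.09 ± 0.58 (adjusted p = 0.0445), -0.82 without normal section 1, and -0.16 with members ranked by the 5 other genes (adjusted p = 0.912). Ptger4, the EP4 prostaglandin receptor, was at 2.40 and 3.95 against 20.9 and 15.5 and rose by 2.50 ± 0.37 (adjusted p = 0.00927). Of the 4 falls 1 passed when either ischemic section was left out, and all 4 had an unadjusted p under 0.05.

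**Figure D2:**
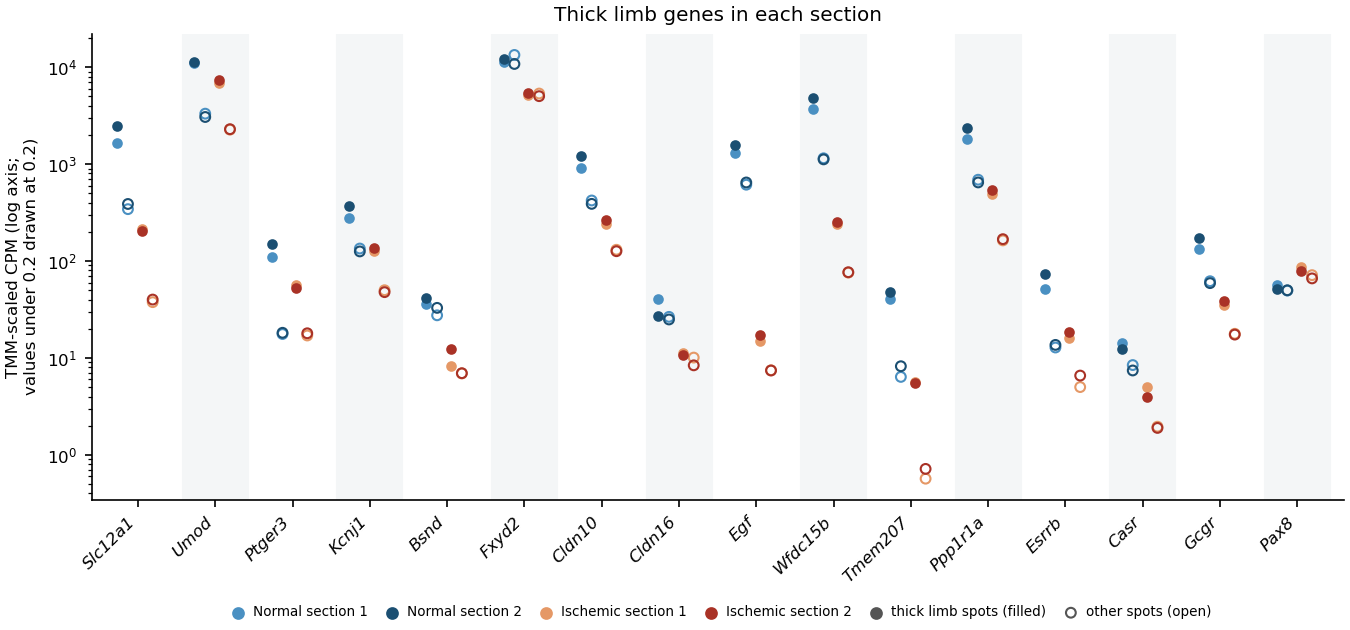
Level of 16 thick limb genes in each section (scaled CPM, log axis), with filled points for members and open points for other spots. Egf shows the widest gap, with members at 1303 and 1564 in the normal and 14.9 and 17.1 in the ischemic sections, while Pax8 members lie between 50.8 and 86.1.

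Respiratory chain genes encoded in the nucleus were lower almost throughout. Of 20 subunits 18 fell and 2 did not pass, against 13.3% of all genes tested that fell. Their log2 differences ran from -1.84 to -0.84, with a median of -1.29. Cox4i1, a subunit of cytochrome c oxidase, went from 5143 and 3636 to 1269.7 and 1286.5 scaled CPM (log2 -1.84 ± 0.30, adjusted p = 0.0113). Sdhb of complex II fell from 618 and 512 to 164 and 163, and Ndufb8 of complex I from 1548.5 and 1132 to 414 and 414. The subunits that did not pass were Ndufa9 (log2 -0.89 ± 0.33, adjusted p = 0.103) and Cox7c (log2 -0.84 ± 0.27, adjusted p = 0.0675). The summed level of the 20 genes was 30476 and 23730.3 in normal against 10988 and 10993 in ischemic members.

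Most genes of the mitochondrial genome did not pass. Of 12 tested 1 fell, against 13.3% of all genes tested, with a median of -0.75. The sum of all 13 was 56300.3 and 33125 in normal against 24316 and 26346 in ischemic members. Normal section 1 stood above the other sections in this sum. The gene that fell was mt-Cytb, the cytochrome b of complex III (10743 and 6894 against 3304 and 3457, log2 -1.44 ± 0.34, adjusted p = 0.0284), and mt-Co3 did not pass (log2 -1.03 ± 0.34, adjusted p = 0.0767). No fall of these nuclear and mitochondrial lists passed when either ischemic section was left out, where 6 of the 18 nuclear genes had an unadjusted p under 0.05 and mt-Cytb did not. DESeq2 on the 4 sections called 18 of the 20 nuclear and 3 of the 12 mitochondrial genes lower.

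Other energy genes differed in part. Of 12 genes of the citrate cycle and energy buffering, 5 fell, with a median log2 difference of -0.76, against 13.3% of all genes tested. Idh2, the mitochondrial isocitrate dehydrogenase, went from 1057 and 1290.1 to 238 and 226 scaled CPM (log2 -2.39 ± 0.25, adjusted p = 0.00413). Ckb, the brain-type creatine kinase that buffers ATP, went from 554 and 622 to 153 and 128 (log2 -2.12 ± 0.24, adjusted p = 0.00464). Fh1, the fumarate hydratase, and Ldhb, a lactate dehydrogenase subunit, fell by 1.33 and 1.39 on the log2 scale. Without ischemic section 1, 2 of these 5 passed, and without ischemic section 2 none did in edgeR (3 at an unadjusted p of 0.05).

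Of 14 glycolysis genes 2 fell, with a median of -0.31, a share near the 13.3% that fell among all genes tested. The 2 glycolysis genes were Pfkm, the muscle-type phosphofructokinase (56.8 and 62.2 against 18.6 and 25.4, log2 -1.49 ± 0.24), and Tpi1 (log2 -1.26 ± 0.30). Slc2a1, the glucose transporter GLUT1, was at 56.8 and 94.2 in normal against 156 and 141 in ischemic members and did not pass (log2 0.93 ± 0.28, adjusted p = 0.0594). Among 11 targets of hypoxia signalling edgeR called 0 in either direction (median -0.24), with 3 lower at an unadjusted p of 0.05 and 1 lower by DESeq2. Vegfa was at 49.3 and 87.7 against 30.8 and 42.5 (log2 -0.95 ± 0.32, adjusted p = 0.082). Of the 2 falls in glycolysis, 1 passed without ischemic section 2 and 0 in edgeR without ischemic section 1 (1 at an unadjusted p of 0.05).

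**Figure D3:**
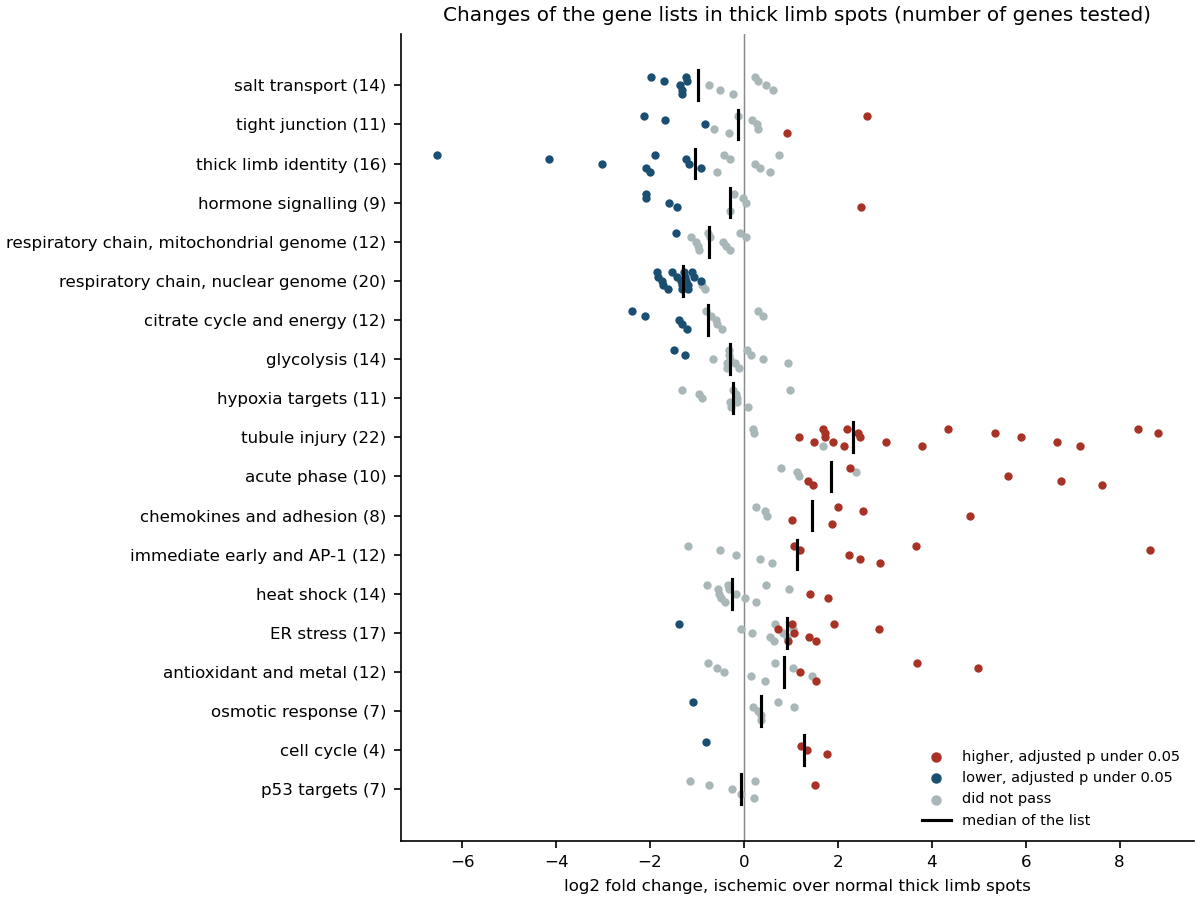
Log2 difference of ischemic from normal members for each tested gene of 19 lists, with the list median as a bar and points in red (higher, passed), blue (lower, passed) or grey (not passed). The nuclear respiratory chain list lies below 0 throughout, and the tubule injury list has a median of 2.31.

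Injury genes rose across the list. Of 22 known from injured tubules 19 rose and 3 did not pass, with a median log2 difference of 2.31, against 9.36% of all genes tested that rose. Krt20, Sox9, Timp1 and Cd44 of this list entered the test only through the ischemic sections. Their direction was thus set by the count filter, and their part in these counts is a description. Lcn2, the iron-binding protein NGAL used as a urinary injury marker, was at 23.1 and 22.8 scaled CPM in normal against 7175.5 and 8896 in ischemic members (log2 8.39 ± 0.38, adjusted p = 0.00149). Spp1, the secreted phosphoprotein osteopontin, rose from 671 and 1418 to 62803 and 66021 (log2 5.90 ± 0.56, adjusted p = 0.00348). Clu, the secreted chaperone clusterin, was at 40.0 and 81.1 against 6033 and 6598 (log2 6.66 ± 0.47, adjusted p = 0.00191). The protease inhibitor Timp1 rose from 1.20 and 3.07 to 327 and 279 (log2 7.15 ± 0.42, adjusted p = 0.00149).

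Havcr1 encodes KIM-1, an injury receptor known above all from the proximal tubule. It was at 3.31 and 1.75 scaled CPM in normal against 114 and 112 in ischemic members, a rise of 5.34 ± 0.32 (adjusted p = 0.00149) that spanned 4.65 to 8.10 over the alternatives. Other spots of the ischemic sections held 1541 and 1535. Krt20, a keratin of injured tubule cells, had 0 UMIs in both normal member sums and stood at 19.2 and 21.9 in the ischemic ones, which is at least 38.2-fold higher when 3 counts over the normal sections are taken as the floor. That bound was 15.5-fold without normal section 1 and 22.6-fold without normal section 2. Such floors and intervals cover counting error only.

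Receptor, growth and cytoskeletal genes of injury rose as well. Tnfrsf12a, the TWEAK receptor Fn14, was at 14.4 and 14.0 in normal against 212 and 200.2 in ischemic members (log2 3.80 ± 0.24, adjusted p = 0.00156). Cd44, a hyaluronan receptor, rose by 3.02 ± 0.39 from 1.80 and 2.19 to 19.9 and 13.9. Cdkn1a, the cell cycle inhibitor p21, rose by 2.46 ± 0.26 and Myc by 2.20 ± 0.31. Krt8 and Krt18, the keratin pair of simple epithelia, rose by 1.67 ± 0.22 and 1.496 ± 0.42. Sox4 rose by 1.73 ± 0.25, and Sox9, a factor of tubule repair, had 1 UMI in normal and 26 in ischemic members (ratio 26.3, 95% counting interval 4.33 to 1080.2). The adhesion molecule Vcam1 was at 14.4 and 16.7 against 16.6 and 20.7 and did not pass (log2 0.21 ± 0.25, adjusted p = 0.586), nor did Krt19 (adjusted p = 0.0901). Of the 19 rises, 15 passed without ischemic section 1, 15 without ischemic section 2 and 12 with members ranked by the 5 other genes.

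Genes of the acute phase response rose with them. Of 10 genes 6 rose, with a median log2 difference of 1.86, against 9.36% of all genes tested that rose. Fgb and Serpina3n entered the test only through the ischemic sections, so their direction was set by the count filter. Socs3, the feedback inhibitor of STAT3 signalling, was at 1.20 and 3.51 scaled CPM in normal against 120.3 and 108 in ischemic members (log2 5.62 ± 0.40, adjusted p = 0.00194), against 53.1 and 52.2 in other ischemic spots. Stat3 itself rose by 1.47 ± 0.26 from 46.6 and 70.1 to 160 and 174, and Osmr, the oncostatin M receptor upstream of it, by 2.25 ± 0.35 from 6.31 and 14.0 to 50.03 and 47.3. Serpina3n, a protease inhibitor of the acute phase, had 1 UMI in normal and 137 in ischemic members (ratio 138.8, 95% counting interval 24.5 to 5523). Fgb, the fibrinogen beta chain, was at 0 and 0 against 9.94 and 7.95, at least 16.9-fold higher (6.87-fold without normal section 1 and 10.02-fold without normal section 2). The alpha chain Fga was at 18.0 and 6.58 against 24.9 and 33.8 and did not pass (adjusted p = 0.111), while complement C3 was at 3.91 and 7.01 against 14.6 and 9.93 (adjusted p = 0.0835). With either ischemic section left out, 5 of the 6 rises passed.

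Of 8 chemokine and adhesion genes tested 5 rose, with a median of 1.45, against 9.36% of all genes tested that rose. Cxcl1 and Cxcl2 entered the test only through the ischemic sections, so their direction was set by the count filter. Il34, a ligand of the macrophage receptor CSF1R, was at 29.2 and 28.5 in normal against 109.7 and 110.1 in ischemic members (log2 1.87 ± 0.21, adjusted p = 0.00456), and Csf1, the other ligand of that receptor, rose by 1.02 ± 0.26 (adjusted p = 0.0335). The call of Csf1 was lost in 7 of 17 alternatives, DESeq2 and core members only among them, with log2 differences down to 0.22. The neutrophil attractant Cxcl1 rose by 2.54 ± 0.44 from 1.20 and 1.75 to 8.28 and 9.54, and the monocyte attractant Ccl2 by 1.99 ± 0.45. Cxcl2 had 1 UMI in normal and 36 in ischemic members (ratio 36.5, 95% counting interval 6.14 to 1480). Without ischemic section 1, 1 of the 5 rises passed, and without ischemic section 2, 2 passed, with all 5 at an unadjusted p under 0.05 in either case.

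Among 12 immediate early and AP-1 genes tested 7 rose, with a median of 1.13, against 9.36% of all genes tested that rose. Fosl1 entered the test only through the ischemic sections, so its direction was set by the count filter. Fosl1, an AP-1 subunit, had 0 UMIs in normal members and stood at 18.6 and 17.9 scaled CPM in ischemic members, at least 34.1-fold higher (13.9-fold without normal section 1 and 20.2-fold without normal section 2). Its relatives Atf3, Maff and Fosl2 rose by 2.90 ± 0.39, 3.66 ± 0.47 and 2.47 ± 0.25 on the log2 scale. Klf6 rose from 12.9 and 21.04 to 83.2 and 81.0, and Jun from 26.7 and 33.3 to 77.5 and 64.0. Fos, the founding AP-1 member, was at 16.5 and 31.6 against 8.95 and 12.7 and did not pass (log2 -1.19 ± 0.38, adjusted p = 0.0673). The number of rises was 5 without ischemic section 1 and 6 without ischemic section 2.

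**Figure D4:**
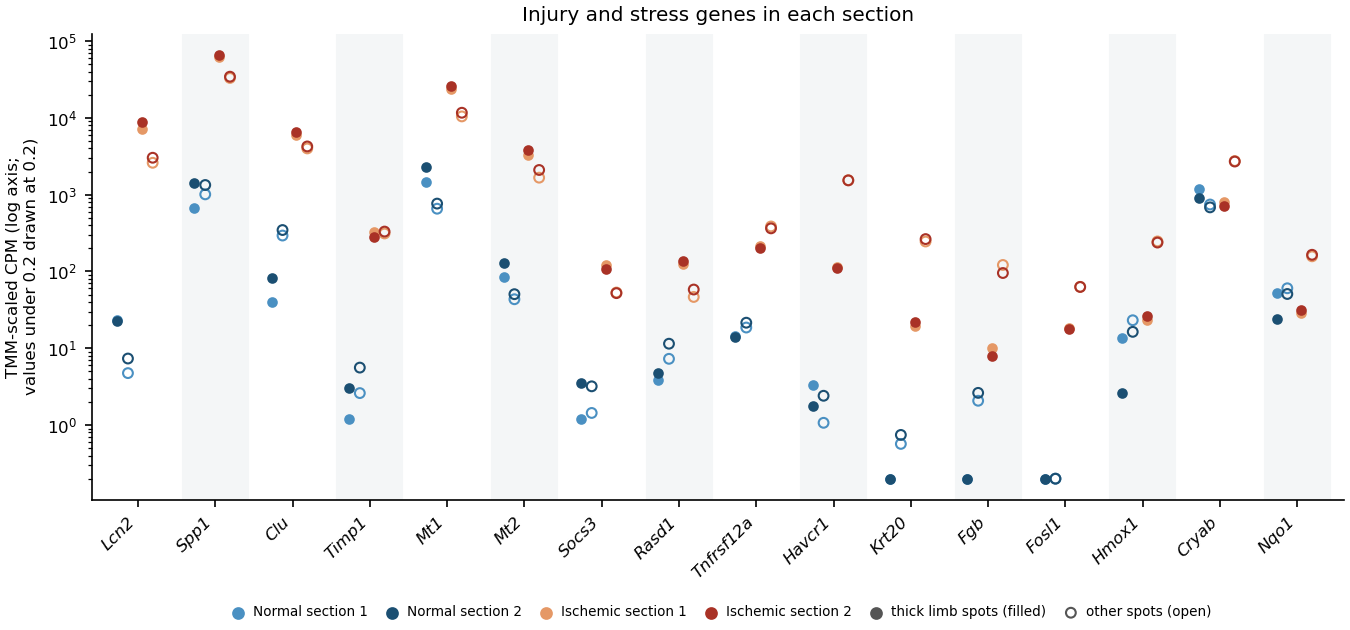
Level of 16 injury and stress genes in each section (scaled CPM, log axis, values under 0.2 drawn at 0.2), with filled points for members and open points for other spots. Lcn2, Spp1, Mt1, Mt2 and Socs3 lie higher in members than in other spots of the ischemic sections, and Havcr1, Krt20, Fgb and Hmox1 lower.

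Stress responses were uneven. Metallothioneins, small proteins that bind zinc and copper, rose most among the 12 metal and antioxidant genes tested, of which 4 rose (median 0.86) and 3 of these passed with either ischemic section left out. Mt1 was at 1451 and 2275 in normal against 23713 and 26042 in ischemic members (log2 3.69 ± 0.39, adjusted p = 0.00432), and Mt2 at 84.5 and 128 against 3253 and 3764 (log2 4.99 ± 0.35, adjusted p = 0.0019). The NRF2 targets Srxn1 (log2 1.53 ± 0.21) and Gsr (log2 1.19 ± 0.29) rose. The share that rose among all genes tested was 9.36%. Hmox1, heme oxygenase 1, was at 13.5 and 2.63 in normal against 23.2 and 26.2 in ischemic members and did not pass (adjusted p = 0.11), with 246 and 238 in other ischemic spots.

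Of 14 heat shock genes (median -0.24) 2 rose, Hspb1 (98.3 and 165 against 364 and 362, log2 1.41 ± 0.29) and the collagen chaperone Serpinh1 (100.4 and 121 against 414 and 384, log2 1.80 ± 0.23), of which 1 passed without ischemic section 2 and none in edgeR without ischemic section 1 (2 at an unadjusted p of 0.05). Among all genes tested 9.36% rose. The small heat shock protein gene Cryab was at 1195 and 918 in normal against 810.1 and 719.5 in ischemic members, a list member that did not pass. Of 17 genes of endoplasmic reticulum stress 8 rose and 1 fell, with a median of 0.92, while 9.36% of all genes tested rose and 13.3% fell. Atf4, the central factor of the integrated stress response, rose by 1.07 ± 0.22 from 101 and 116 to 237 and 236, and its targets Trib3, Asns and Atf5 by 2.87, 1.93 and 1.38. Xbp1 rose by 0.93 ± 0.21, while Herpud1, which acts in degradation of misfolded proteins, fell by 1.38 ± 0.24 from 328 and 259 to 114 and 119.6. Hspa5, the chaperone BiP, was at 219 and 134 against 357 and 398 and did not pass (adjusted p = 0.0527). Of the 8 rises, 2 passed without ischemic section 1 and 1 without ischemic section 2 (4 at an unadjusted p of 0.05 in both cases), and with members ranked by the 5 other genes edgeR called 0 of the 8, all of which had an unadjusted p under 0.05.

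Osmolyte genes matter here because the medulla is hypertonic. Of 7 on the list (median 0.36) 1 fell, Slc6a6, the taurine transporter (85.4 and 57.9 against 32.1 and 38.5, log2 -1.08 ± 0.27, adjusted p = 0.0329). Among all genes tested 13.3% fell. Slc5a3, which imports myo-inositol, was at 184 and 284 against 432 and 374 and did not pass (adjusted p = 0.105). Of 13 cell cycle genes 4 had enough counts for a test (median 1.28). Pcna (33.1 and 25.4 against 72.2 and 82.6), Mcm5 and Mcm6, which act in DNA replication, rose by 1.34 ± 0.23, 1.76 ± 0.34 and 1.22 ± 0.29. Ccnd1, cyclin D1, went the other way, from 123 and 141 to 79.2 and 76.3 (log2 -0.82 ± 0.21, adjusted p = 0.0364). Among 7 targets of p53 (median -0.07) 1 rose, against 9.36% of all genes tested. It was the stress cytokine gene Gdf15 (37.9 and 54.8 against 139 and 133, log2 1.51 ± 0.25). Cdkn1a, also a p53 target, was counted with the injury genes, where it rose as given above. When either ischemic section was left out, the falls of Slc6a6 and Ccnd1 did not pass. Of the 3 cell cycle rises, 2 passed without ischemic section 1 and 1 without ischemic section 2, and Gdf15 did not pass without ischemic section 1. DESeq2 did not call Ccnd1 or Mcm6. With members ranked by the 5 other genes edgeR called 0 of the 3 rises and not Ccnd1, all at an unadjusted p under 0.05.

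The largest rises by the naming rule (passed, no overlap, mean of 20 CPM or more in the higher condition) included genes absent from normal members. Genes absent or nearly absent there passed the count filter only through the ischemic sections, so their direction was set by that filter. Vgf, which encodes a secreted neuropeptide precursor, had 0 UMIs in normal members and stood at 49.7 and 58.4 scaled CPM in ischemic members, at least 100.3-fold higher (40.8-fold without normal section 1 and 59.5-fold without normal section 2). Grp, the gastrin-releasing peptide gene, was at 0 and 0 against 31.8 and 41.3, at least 67.6-fold higher (27.5-fold and 40.1-fold). Sprr2f, a gene of the cornified envelope family, had 1 UMI against 344 (ratio 348.6, 95% counting interval 62.2 to 13808). Aldh1a2, which makes retinoic acid, rose from 0.301 and 1.32 to 97.7 and 60.8 (log2 6.64 ± 0.52, adjusted p = 0.00224). The calprotectin genes S100a8 (0 and 0 against 26.2 and 21.9, at least 45.3-fold higher, or 18.4-fold and 26.9-fold) and S100a9 (1 UMI against 162, ratio 164.2, 95% counting interval 29.1 to 6524) are markers of neutrophils. With Krt20, Lcn2, Timp1, Serpina3n, Clu and Spp1 these make up the 12 largest rises. There were 777 rises that met the rule.

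Among the 12 largest falls were many proximal tubule genes, and these were uneven between the normal sections. Genes absent or nearly absent from the ischemic members passed the count filter only through the normal sections, so their direction was set by that filter. Slc7a13, an amino acid transporter of the straight tubule, was at 626 and 109.6 in normal against 2.32 and 1.99 in ischemic members (log2 -7.45 ± 1.02, adjusted p = 0.00809), and its change was -5.65 without normal section 1. Mep1b, a brush border protease, was at 427 and 74.5 against 1.33 and 1.19 (log2 -7.65 ± 1.07, and -5.85 without normal section 1). The organic anion transporter gene Slc22a7 was at 600.2 and 117 against 1.99 and 1.19 (log2 -7.82 ± 1.00, and -6.15 without normal section 1). Dio1, an iodothyronine deiodinase, was at 47.8 and 17.1 against 0 and 0, at least 65.1-fold lower. The bound for Dio1 was 31.5-fold without normal section 1, 29.6-fold without ischemic section 1 and 35.5-fold without ischemic section 2.

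Lypd2 and Nccrp1 were the large falls in which normal section 2 stood above normal section 1. Lypd2 was at 65.5 and 84.6 in normal against 0.994 and 0.397 in ischemic members (log2 -6.66 ± 0.39, adjusted p = 0.00149, and -6.80 without normal section 1). Nccrp1 had 350 UMIs in normal and 3 in ischemic members, 115.1-fold lower with a 95% counting interval of 39.1 to 561.0. The other large falls were Nat8f6, Slc22a26, Mettl7a2, Eci3, Akr1c18 and C8a, and 1214 falls met the rule.

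Whether a change was particular to the thick limb spots was asked with the interaction of region and condition over 8 sums, with a term for the section. Of 14946 genes 112 (0.749%) passed, 35 (0.234%) with a change more positive in members than in other spots and 77 (0.515%) more negative. Clu had the lowest adjusted p of the injury list, with an interaction of 3.09 on the log2 scale (adjusted p = 0.00488). Its level in normal members, 40.0 and 81.1, was below that in normal other spots, 294 and 346. In the ischemic sections members at 6033 and 6598 stood above other spots at 4002 and 4246. Without TMM scaling, Clu in ischemic sections 1 and 2 was at 6948 and 7501 CPM in core members. Spots next to members held 7270 and 8113 and spots farther away 3628 and 3872, so high levels were not confined to members. Spp1 had an interaction of 1.18 (adjusted p = 0.0478), with other spots going from 1009 and 1336 to 33117 and 34398. Spots next to ischemic members held 65175 and 73515 CPM of Spp1 without TMM scaling, against 78907 and 79909 in core members. Rasd1, a small GTPase gene induced by glucocorticoids, was at 3.91 and 4.82 against 126 and 135 in members and at 7.28 and 11.4 against 46.5 and 58.1 in other spots (interaction 2.40, adjusted p = 0.00988). Timp1 (0.87, adjusted p = 0.326) and Tnfrsf12a (-0.38, adjusted p = 0.513) did not pass.

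For several injury and stress genes the change in members was more negative than elsewhere. Havcr1 had an interaction of -4.50 (adjusted p = 0.0149), with other spots at 1.07 and 2.40 in normal against 1541 and 1535 in ischemic sections. Cryab was at 744 and 683 in normal against 2740 and 2700.5 in ischemic other spots, which with its member values gave -2.39 (adjusted p = 0.00488). Fga (-2.14), Nqo1 (-1.83), Plaur (-1.74), Srxn1 (-1.34), Gdf15 (-1.31), Lgals3 (-1.23) and Anxa2 (-1.13) had the same sign. Nqo1, a quinone reductase under NRF2, was at 52.6 and 23.7 against 28.8 and 31.4 in members and at 60.4 and 50.9 against 157 and 165 elsewhere. Ccnd1 fell in members, as above, and was at 64.1 and 60.4 against 113 and 119 in other spots (interaction -1.66, adjusted p = 0.0131).

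Among transport genes, Kcnj16, a basolateral potassium channel subunit, was at 221 and 151 in normal against 232 and 227 in ischemic members, while other spots went from 362 and 289 to 192 and 184 (interaction 1.11, adjusted p = 0.0418). Akr1b3, aldose reductase, which makes the osmolyte sorbitol, was at 83.6 and 85.0 against 89.1 and 136 in members and at 254 and 240 against 112 and 129.9 elsewhere (interaction 1.42, adjusted p = 0.0294). Cldn3 was at 46.0 and 32.9 against 34.8 and 41.3 in members and at 33.6 and 26.7 against 63.2 and 65.7 in other spots (interaction -1.15, adjusted p = 0.0418). Car15, a membrane carbonic anhydrase, was at 37.3 and 12.7 against 181 and 308 in members and between 131 and 157 in other spots of all sections (interaction 3.20, adjusted p = 0.0174). When members were ranked by the 5 other thick limb genes, 1 gene passed the interaction, Bst1, and 100 of the 112 terms kept their direction. At an unadjusted p of 0.05 there were 1679 genes with that ranking and 1873 with the members as chosen. The number that passed was 1452 without normal section 1, 1944 without normal section 2, 82 without ischemic section 1 and 223 without ischemic section 2.

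Within the sections the injury genes followed the marker share in different ways, given here as a description in CPM without TMM scaling. The spots of a section were put in 10 equal groups by marker share, of which the highest was the members (in normal section 1, all but 1 of its 262 members). Lcn2 in the ischemic sections was at 551.9 and 574.0 in the lowest group, 9215 and 9164 in the ninth and 8589 and 10559 in the highest. Socs3 ran from 24.2 and 20.4 in the lowest group to 148.7 and 126.4 in the ninth and 144.0 and 128.7 in members. High levels of Lcn2 and Socs3 were thus not confined to members. Havcr1 was highest in the middle of the order, at 2293 and 2258 in the fifth group, and lowest in members, at 136.8 and 133.0. Krt20 was highest in the sixth group, at 496.9 and 491.2, against 23.0 and 25.9 in members. In the normal sections Egf was at 102.5 and 80.0 in the lowest group and at 1148 and 1958 in the highest.

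Between core and border members the contrast held for Havcr1 and Krt20 and not for Socs3, while Lcn2 was nearly level in ischemic section 1. In ischemic sections 1 and 2 Krt20 was at 14.7 and 15.5 CPM in core against 26.1 and 31.9 in border members. Socs3 was at 134 and 94.5 in core against 148 and 148 in border members. Havcr1 in ischemic sections 1 and 2 was at 89.5 and 80.2 CPM in core members, 154 and 163 in border members, 376 and 236 in spots next to members and 1631 and 1643 farther away. Lcn2 was at 8611 and 11092 in core, 8580 and 10254 in border, 8042 and 9696 in adjacent and 2040 and 2406 in distant spots. Core members thus had the lowest Havcr1 levels of these classes in each ischemic section.

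**Figure D5:**
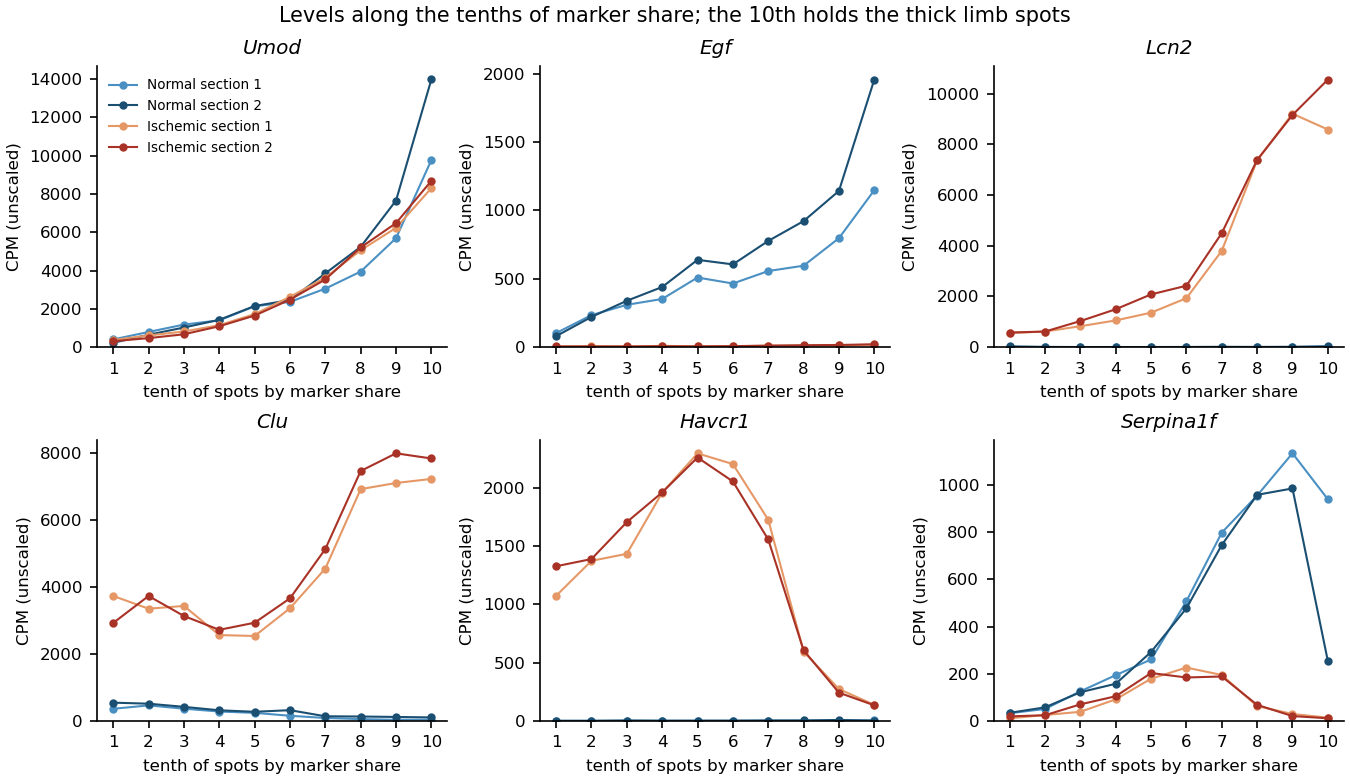
Level of 6 genes (CPM without TMM scaling) in 10 equal groups of spots ordered by marker share within each section, the highest group being the members (261 of 262 in normal section 1). Lcn2 in the ischemic sections is high in the upper groups, Havcr1 peaks at 2293 and 2258 in the fifth group, and Egf in the normal sections is highest in the last group, at 1148 and 1958.

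Counts per spot pointed the same way for these genes. Thinned to 2000 UMIs, 22.4% (95% Clopper-Pearson interval 17.2% to 28.2%) and 22.7% (17.7% to 28.3%) of ischemic members held a Havcr1 UMI, against 72.4% and 71.0% of other spots. The intervals count spots as independent, which neighbouring spots may not be, and leave out the spread between sections. Unthinned shares were 68.3% and 57.1% of members. In normal members the thinned share was 0.382% and 0.775%, and the unthinned share 4.198% and 1.49%. Lcn2 was found in each member kept of ischemic section 1, in 99.6% of those of ischemic section 2, and in 3.44% and 5.43% of normal members (18.7% and 13.4% without thinning). The thinning left out 0, 10, 3 and 1 members of normal 1, normal 2, ischemic 1 and ischemic 2.

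Markers of other cell types moved with the condition as well, and their part in the results above was not tested. All 5 proximal straight tubule markers fell in members, with a median log2 change of -6.02, against 13.3% of all genes tested that fell. Serpina1f was at 1066 and 203 in normal against 11.3 and 9.14 in ischemic members (log2 -6.02 ± 0.87, adjusted p = 0.0086, and -4.32 without normal section 1). Of 5 proximal convoluted markers tested 4 fell, and the sum of all 7 on the list was 739.7 and 324 in normal against 78.2 and 89.8 in ischemic members. Slc34a1, the phosphate transporter, fell by 2.73 ± 0.24 from 205 and 169 to 29.2 and 29.4. Lrp2, the endocytic receptor megalin, was at 313 and 59.2 against 5.96 and 7.95, a change of -4.81 ± 0.84, of -3.12 without normal section 1 and of -1.48 with members ranked by the 5 other genes (adjusted p = 0.397). With only the members at or below their section's median share of proximal genes, 2443 genes passed, against 2586 with all members. Of the 2586 calls, 1911 (73.9%) were shared in the same direction. This choice was made after seeing the data, and each section's own median does not set 1 proximal level for all sections.

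Immune cell markers moved in both directions. Of 7 macrophage markers 2 fell and 1 rose, while 13.3% of all genes tested fell and 9.36% rose. The sum of the 7 markers was 829 and 881 in normal against 258 and 272 in ischemic members. Cd74, the invariant chain of MHC class II, made up most of the normal sums and fell by 3.96 ± 0.24 from 531 and 559 to 36.1 and 36.6. Csf1r fell by 2.40 ± 0.26, while Cd68, a lysosomal protein of phagocytes, rose by 2.20 ± 0.27 from 5.41 and 6.14 to 24.5 and 30.6. Of the neutrophil markers, S100a8 and S100a9 had enough counts for a test only through the ischemic sections. Their direction was thus set by the count filter, and their rise is given as a description. The sum of the 5 neutrophil markers was 0.902 and 2.19 in normal against 53.7 and 64.4 in ischemic members, against 189 and 188 in other ischemic spots, and the receptor genes Csf3r and Cxcr2 were too low to test. The 7 T cell genes summed to 26.1 and 27.2 against 4.97 and 5.96, and Cd3d had 19 UMIs in normal and 0 in ischemic members, at least 6.25-fold lower (2.84-fold without ischemic section 1 and 3.41-fold without ischemic section 2).

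Most stromal markers rose in members, where 9.36% of all genes tested rose and 13.3% fell. Of 6 fibroblast and pericyte genes 5 rose and 1 fell, 4 of the 5 rises also with either ischemic section left out, with a sum of 182 and 235 in normal against 701 and 693 in ischemic members. Col1a1, a chain of type I collagen, rose by 3.07 ± 0.22 from 9.92 and 10.96 to 93.1 and 89.0, and Col3a1 by 2.64 ± 0.24 from 30.4 and 38.1 to 231 and 211. Acta2, smooth muscle actin, rose from 30.1 and 48.2 to 172 and 196, with an interaction of 1.94 (adjusted p = 0.00988) against other spots at 128 and 156 in normal against 173 and 183 in ischemic sections. Dcn, the matrix proteoglycan decorin, fell by 1.88 ± 0.25 from 61.0 and 53.04 to 18.9 and 13.1. Synpo, an actin-binding protein of podocytes, rose by 2.96 ± 0.32 from 3.31 and 6.14 to 35.1 and 38.9, while the podocyte gene Nphs1 was too low to be tested.

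Markers of neighbouring structures and of blood gave mixed results. The thin limb markers Slc14a2, a urea transporter (71.8 and 288 against 650.1 and 619.8, adjusted p = 0.0722), and Bst1 (49.0 and 82.8 against 130.1 and 96.9, adjusted p = 0.132) did not pass in edgeR. Both had an unadjusted p under 0.05, and 1 was called by DESeq2. Of 7 endothelial markers edgeR called 0, with 1 lower at an unadjusted p of 0.05 and 0 by DESeq2, and a sum of 449 and 590.0 in normal against 590.5 and 582 in ischemic members. Of 7 principal cell genes 1 fell, Hsd11b2, which inactivates glucocorticoids (113 and 145 against 28.2 and 36.9, log2 -2.04 ± 0.25). That share was near the 13.3% that fell among all genes tested. Of 5 intercalated cell genes tested 2 fell and 1 rose, against 13.3% and 9.36% of all genes tested. Slc4a1, the anion exchanger shared with red cells, fell by 4.88 ± 0.32 from 57.4 and 78.9 to 2.65 and 1.99. All 4 hemoglobin genes fell, with a sum of 1277 and 1492 against 711 and 469, and 1 of them passed without ischemic section 1 and 0 in edgeR without ischemic section 2 (1 at an unadjusted p of 0.05). Of 4 urothelial genes tested 1 fell, against 13.3% of all genes tested. The sum over that list's 6 genes was 42.1 and 315 in normal against 19.5 and 94.6 in ischemic members. The 1 distal convoluted tubule gene tested did not pass.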

How the data were processed

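Spatial transcriptomics (10x Visium) of 4 mouse kidney sections was used, 2 per condition. The authors deposited raw UMI counts for each gene in each spot, with spot positions, made with Space Ranger on mm10 per the submitters' processing notes (versions and annotation not given in the sources used here). Groups came from the sample labels.

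Deposited counts were summed over member spots of each section and tested between conditions with edgeR 4.0.16 in R 4.3.3 (filterByExpr, TMM, quasi-likelihood test, Benjamini-Hochberg adjustment, threshold 0.05). A second fit over member and other-spot sums, with a section term, tested the interaction. Slc12a1, Umod and Ptger3, used by the rule, were not tested. SE was the log2 change divided by the root of the F statistic. Genes with 0 counts in a condition were given a floor of 3 counts over its sections. Ratios have 95% exact counting intervals. Named genes were list members, the 12 largest rises and falls, and the 8 largest interaction terms per direction, at 20 CPM or more. The members, gene lists and tests were chosen with earlier results of these data known. DESeq2 1.42.0, RLE scaling, no low-count filter, other member definitions, thinning and leaving out each section were alternatives. Summaries used Python 3.11.15 with NumPy 2.4.6, SciPy 1.17.1 and pandas 2.3.3. The scripts were tested on simulated data. Genes with close relatives (globins, the Serpina1 and Sprr2 families) are uncertain where reads fit several copies. Some genes that count in the lists are not reported here by name. The single-cell data of the study were not analysed here.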

Additional observations from a re-analysis of the deposited data

Results flagged for a closer look

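For 31 named genes the change with ischemia differed between thick limb spots and the other tissue spots by the interaction test (edgeR's quasi-likelihood test, Benjamini-Hochberg adjustment). Values are interaction terms on the log2 scale, positive where the change in members was more positive. With members ranked by 5 other thick limb genes 1 of them passed, Bst1 (adjusted p = 0.0208).

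Among injury and stress genes the more negative terms were Havcr1 -4.50 (adjusted p = 0.0149), Cryab -2.39 (0.00488), Fga -2.14 (0.0478), Nqo1 -1.83 (0.0385), Plaur -1.74 (0.0399), Srxn1 -1.34 (0.0313), Gdf15 -1.31 (0.0324), Lgals3 -1.23 (0.0372) and Anxa2 -1.13 (0.0418). The more positive ones were Clu 3.09 (0.00488), Rasd1 2.40 (0.00988) and Spp1 1.18 (0.0478). Mt3, a metallothionein, had -2.78 (0.00988), with 17.1 and 16.7 scaled CPM in normal and 24.2 and 15.5 in ischemic members and 4.64 and 4.11 against 34.9 and 36.3 in other spots.

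Among transport, junction, energy and cell cycle genes, Kcnj16 had 1.11 (0.0418), Akr1b3 1.42 (0.0294), Cldn3 -1.15 (0.0418), Ckb -1.19 (0.0418) and Ccnd1 -1.66 (0.0131). Slc8a1, a sodium-calcium exchanger, had 2.79 (0.0390), with 2.10 and 2.63 against 2.98 and 2.78 in members and 40.9 and 46.9 against 8.63 and 6.79 in other spots. Car15 had 3.20 (0.0174). Car3, a carbonic anhydrase of fat and muscle, had 6.23 (0.0168), with 0.601 and 0.877 against 0.994 and 1.59 in members and 175 and 87.0 against 3.23 and 3.21 in other spots. The member levels of Car3 rest on few UMIs, and no floor or counting interval was applied to its term.

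Genes known from proximal tubule or liver were Serpina1b at -4.56 (0.0168), Apob at -4.35 (0.0440), Aldh1a7 at -3.12 (0.0183) and Gatm, an enzyme of creatine synthesis, at 2.43 (0.0131). Gatm was at 11.4 and 10.96 against 5.30 and 5.16 in members and 413 and 389 against 39.1 and 30.5 in other spots. Serpina1b was at 58.9 and 21.04 against 0.994 and 0.397 in members and 39.5 and 26.4 against 13.1 and 16.8 in other spots. Its ischemic member levels rest on few UMIs, without a floor or counting interval for the term. Markers of other cells were Bst1 at -2.19 (0.0131), Col1a1 at 1.40 (0.0407), Synpo at 1.73 (0.0407), Acta2 at 1.94 (0.00988) and Hbb-bt, a beta globin, at 2.57 (0.0407). Gm32461, a predicted gene, had 3.71 (0.00488), with 1.20 and 1.75 against 38.1 and 51.3 in members and 27.6 and 37.8 against 68.6 and 81.9 in other spots.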

How the results depend on the processing

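Limits come from 2 sections per condition whose mice are not given, from spots that mix cells, and from member depth, which was lowest in normal section 2. Of 145 named genes 125 passed, and over their alternatives 1928 of 2096 values kept direction and call, 168 kept only the direction and 0 reversed. DESeq2 called 1880 genes (643 higher), and no low-count filter 3954 (1672 higher, 2282 lower). Members as the top 20% of spots gave 5747 (2728 and 3019), ranking without neighbours 4176 (1844 and 2332), ranking by 5 other thick limb genes 583 (303 and 280), and 1 marker share cut for all sections 5597 (2612 and 2985). Under the ranking by 5 other thick limb genes the calls that held were 1 of 3 tight junction falls, 0 of 2 rises (2 at an unadjusted p of 0.05), 5 of 9 identity falls, 3 of 4 signalling falls, 4 of 18 nuclear respiratory chain falls and 2 of 5 citrate cycle falls. The cause of these differences was not tested. Leaving out each section gave 1087 to 5859 calls, 408 to 2613 higher and 679 to 3246 lower. The replicate block gave 3333 calls, of which 2552 were shared, but same-numbered sections share only a number, their deviations correlated at 0.0272, and the pairing was not used.

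For the interaction (112 calls), DESeq2 gave 173 (130 lower), no filter 717 (217 higher, 500 lower), the top 5% of spots 339 (146 and 193), the top 20% 2379 (794 and 1585), no neighbours 904 (303 and 601), core members 421 (178 and 243), no section term 16 (4 and 12), and the added choice of members with the lower proximal share, made after seeing the data, 315 (136 and 179). Ranking by 5 other thick limb genes gave 1 call (0 higher, 1 lower in edgeR, with 1679 at an unadjusted p of 0.05) and reversed Akr1b3 (-0.27), Apob (0.40) and Fga (0.88). Leaving out each section gave 82 to 1944 calls, 21 to 602 higher and 61 to 1376 lower.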
